A study of Mus musculus with 2 samples.

Results

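The genes described here encode the E proteins and their Id inhibitors, measured in regulatory T cells (Treg cells, a CD4+ lineage that depends on the transcription factor Foxp3 and keeps immune responses in check). They were taken by gene symbol, 6 of the 24081 genes in the count table: the E protein genes Tcf3, Tcf4 and Tcf12, and the inhibitor genes Id1, Id2 and Id3. Of these, 5 reached the floor for a measured gene, a mean of at least 20 raw reads over both libraries, as did 10899 genes in all. Id1 did not reach it.

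Messenger RNA was sequenced from CD4+ YFP+ cells, sorted out of spleen and lymph nodes from 5-week-old C57BL/6 mice that carried 1 Foxp3 allele with Cre recombinase and 1 wild-type Foxp3 allele (Foxp3cre/wt), YFP marking the cells that expressed Cre. Mice of the control library (WT) had 1 floxed and 1 wild-type allele of a gene of the SUMO pathway, which attaches small SUMO proteins to other proteins. The knockout library (KO) came from mice with both alleles floxed, so Cre was present in both groups. Because Foxp3 lies on the X chromosome, mice of this genotype also keep Treg cells that do not express Cre, and these were outside the sort. Each library held cells pooled from 5 to 10 mice and each group had 1 library, so the spread between replicates is unknown and the comparisons below carry counting intervals in place of tests. Since both samples carry the same genotype label (wild type), the groups rest on the sample titles and the series' design text.

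E proteins are helix-loop-helix transcription factors that pair with each other and bind the E box, a short DNA element. Id proteins have the pairing domain without the DNA-binding part, so an E protein bound to an Id protein is held off DNA. In T cells this balance sets developmental checkpoints, and Id2 and Id3 together are known to be needed to keep the Treg pool. Id2 RNA is typical of effector T cells and Id3 RNA of resting and memory-like T cells.

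The libraries held 11662867 (WT) and 23789264 (KO) reads assigned to genes. The Treg markers fixed for the check of the label (Foxp3, Il2ra, Cd4, Cd3e, Ctla4, Ikzf2, Ikzf4, Tnfrsf18 and Lrrc32) had reads in both libraries. Their summed level was 5159 CPM (reads scaled to library size) in WT and 6690 in KO. Of the 9 markers, 7 had a higher level in KO, among them Foxp3 (713 and 1320 CPM) and Lrrc32 (173 and 408). The other 2, Ctla4 (143 and 88.8) and Ikzf2 (322 and 203), were lower in KO. Markers of other cells had lower sums. B cell markers (9 of 9 listed genes with reads) summed to 153 and 122 CPM, plasmacytoid dendritic cell markers to 231 and 326, NK and innate lymphoid markers to 15.4 and 17.0, CD8 T cell markers to 33.6 and 41.5, thymocyte markers to 7.51 and 7.68, myeloid and dendritic cell markers to 404 and 379, and stromal and endothelial markers to 298 and 328. Pecam1, which T cells also express, gave 295 and 324 of the last sum. Rag2, Ptcra, Klra8, Klra4, Pdgfra and Pdpn were listed at 0 in both. Across genes, transcripts richer in GC had higher log2 ratios of KO over WT (Spearman correlation 0.41; genes are not independent replicates). Values from which a fitted dependence on GC content and transcript length was taken out are therefore given beside the scaled ones and are called trend-removed.

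The DNA just before the RefSeq start of Id2, Id3 and Tcf3 is shown because these are the 3 genes whose levels differed most between the libraries. Each run is 250 bases on build GRCm38.p6, written 5′ to 3′ on the strand of the gene. Capitals mark every E box, searched as CANNTG, which covers both strands because its reverse complement has the same form. Id2 lies on the minus strand at chr12:25096093-25096342, Id3 on the plus strand at chr4:136143572-136143821 and Tcf3 on the minus strand at chr10:80433636-80433885. The Id2 and Id3 runs lie within the spans that the GENCODE M21 annotation gives these genes, so they are upstream of the RefSeq start only.
Id2: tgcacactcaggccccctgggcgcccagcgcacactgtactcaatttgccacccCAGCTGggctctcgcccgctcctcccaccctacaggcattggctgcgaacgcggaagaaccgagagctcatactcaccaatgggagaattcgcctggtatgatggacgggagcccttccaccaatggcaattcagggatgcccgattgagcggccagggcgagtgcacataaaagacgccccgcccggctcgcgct
Id3: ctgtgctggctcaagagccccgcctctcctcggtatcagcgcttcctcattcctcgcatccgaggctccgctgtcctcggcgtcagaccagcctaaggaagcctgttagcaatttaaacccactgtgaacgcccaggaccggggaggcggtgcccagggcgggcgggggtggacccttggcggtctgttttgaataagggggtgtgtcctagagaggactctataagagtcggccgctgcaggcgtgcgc
Tcf3: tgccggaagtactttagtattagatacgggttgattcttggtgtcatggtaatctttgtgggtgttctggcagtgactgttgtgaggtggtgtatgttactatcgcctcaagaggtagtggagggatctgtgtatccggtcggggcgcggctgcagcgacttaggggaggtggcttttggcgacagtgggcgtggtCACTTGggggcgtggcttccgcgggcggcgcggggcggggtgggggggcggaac
The Id2 run held 1 E box, CAGCTG, which begins 196 bases before the start. The Tcf3 run held 1 E box, CACTTG, which begins 54 bases before the start. The Id3 run held none. Among all 32851 promoter windows of this length, 66.2% held an E box and 13.0% held CAGCTG, so these matches are common and describe the letters only. Promoters were searched for 4 of the 6 genes (Id2, Id3, Tcf3 and Tcf12). Those of Id1 and Tcf4 are not reported here.

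Id2, the inhibitor typical of effector T cells, had 258 reads in WT and 319 in KO, although the KO library held 2.04 times as many gene reads. Scaled to depth (edgeR's TMM factors), this was 21.5 CPM in WT and 13.8 in KO. Id2 was 1.56-fold lower in the KO library, with an exact 95% interval of 1.32 to 1.85 that covers counting error only. Its log2 ratio of -0.64 lay at percentile 4.54 of all measured genes. In bulk RNA of this kind, fewer cells that express Id2 and less Id2 RNA per cell cannot be told apart. NK and innate lymphoid cells are rich in Id2 RNA. Of their 8 markers 6 had reads in each library, 3 of them at a higher level in KO and 3 at a lower one, and their summed level was 15.4 CPM in WT and 17.0 in KO. The receptor gene Ncr1 had 3 and 7 reads, and Klrb1c was lower in KO (2.50 and 0.777 CPM, from 30 and 18 reads). Most of the sum came from Prf1 (7.85 and 8.51 CPM) and Eomes (3.59 and 6.26 CPM). Among the other marker lists, the myeloid and dendritic cell one had a larger sum, 404 CPM in WT and 379 in KO. Of its 7 listed markers, 4 had a higher level in KO and 3 a lower one. The part of any of these cells in the Id2 difference was not tested. The trend-removed log2 ratio of Id2 was -0.50, a 1.42-fold lower level, which is under the 1.5-fold used for a call.

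Id3, the inhibitor typical of resting T cells, went the other way. It had 234 reads in WT and 676 in KO, which is 19.5 and 29.2 CPM. Id3 was 1.49-fold higher in KO (counting interval 1.29 to 1.74), at percentile 92.4 of measured genes. Its log2 ratio of 0.58 stopped just short of the 1.5-fold mark, and the trend-removed value was 0.41. The intervals of Id2 and Id3 lay on opposite sides of no difference.

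The remaining Id genes were at the limit of detection. Id1, which is induced by bone morphogenetic proteins in many tissues, had 2 reads in WT and 4 in KO, a ratio of 1.03 with a counting interval of 0.148 to 11.4, so no difference was detectable at this depth. Id4, the fourth gene of the family, was listed at 0 in both libraries, which allows up to 0.250 CPM in WT and 0.130 in KO (3 reads each).

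Among E protein genes the highest in CPM was Tcf12, which encodes HEB. It had 2961 reads in WT and 6234 in KO, or 247 and 269 CPM. The 1.09-fold higher level in KO had a counting interval of 1.04 to 1.14, and its log2 ratio of 0.12 lay between the 25th and the 75th percentile of all measured genes (-0.20 and 0.25). The trend-removed value was 0.21.

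Tcf3, which encodes the E2A proteins E12 and E47, had 1165 reads in WT and 3609 in KO, or 97.3 and 156 CPM. It was 1.60-fold higher in KO (counting interval 1.499 to 1.71), at percentile 94.7 of measured genes. Tcf3 also has a GC content of 61.0% in its longest transcript, against a median of 49.5% for measured genes, and the trend fitted at its GC content and length was 0.39, beside a log2 ratio of 0.68. The trend-removed log2 ratio was 0.29 (1.22-fold higher, percentile 83.1), so the call at 1.5-fold did not hold under this processing.

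Tcf4, which encodes E2-2 and is best known from plasmacytoid dendritic cells and B cells, was the lowest of the E protein genes. It had 102 reads in WT and 217 in KO, or 8.52 and 9.37 CPM. The ratio of 1.10 had a counting interval of 0.866 to 1.41, so no difference was detectable at this depth. Of the 8 plasmacytoid dendritic cell markers, 5 had a higher level in KO and 3 a lower one, with Siglech at 9.18 and 10.1 CPM, Spib at 20.1 and 17.5 and Lair1 at 16.8 and 13.0. Of the 9 listed B cell markers, 4 had a higher level in KO and 5 a lower one, with Cd79a at 36.1 and 39.5 CPM, Cd79b at 32.6 and 15.8 and Ms4a1 at 26.3 and 16.1. The larger sum of the plasmacytoid list in KO came mostly from Pacsin1 (146 and 229) and Ccr9 (37.1 and 54.6). Their part in the Tcf4 level was not tested.

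**Figure D1:**
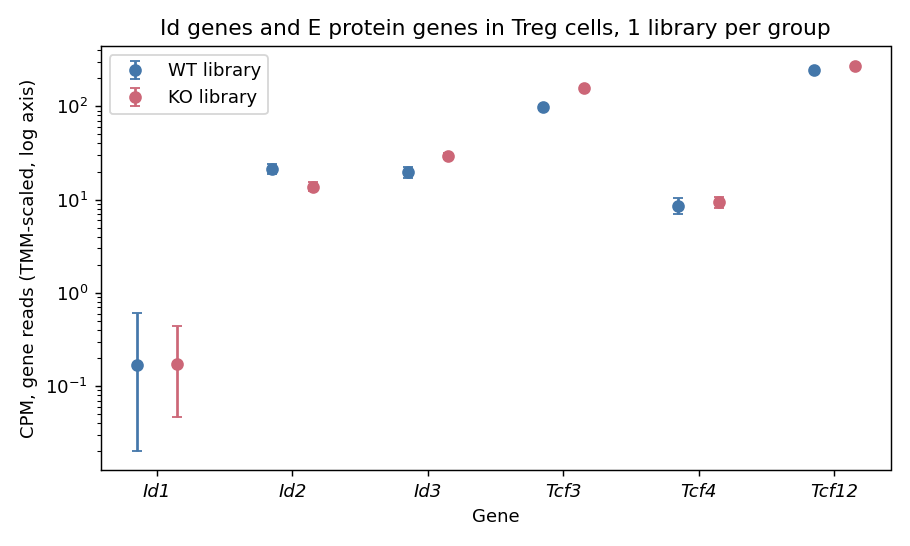
Level of each gene in the 2 libraries, in CPM after TMM scaling, on a log axis. Points are the library values and bars the exact 95% counting interval. Id2 is lower in KO (13.8 against 21.5), Id3 and Tcf3 are higher, and Id1 rests on 2 and 4 reads.

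Taking the 5 measured genes together, 1 (Tcf3) was at least 1.5-fold higher in KO, 1 (Id2) at least 1.5-fold lower, and 3 lay between. Of all measured genes, 7.43% were at least 1.5-fold higher and 5.51% at least 1.5-fold lower, and the median log2 ratio was 0.01. These shares were 4.94% and 5.51% with the trend removed. Of the calls over all genes, 57.4% were higher ones, compared with 45.1% when the libraries were scaled by total reads and 47.3% with the trend removed. With the trend removed none of the 5 genes passed 1.5-fold, while the direction of each was kept.

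**Figure D2:**
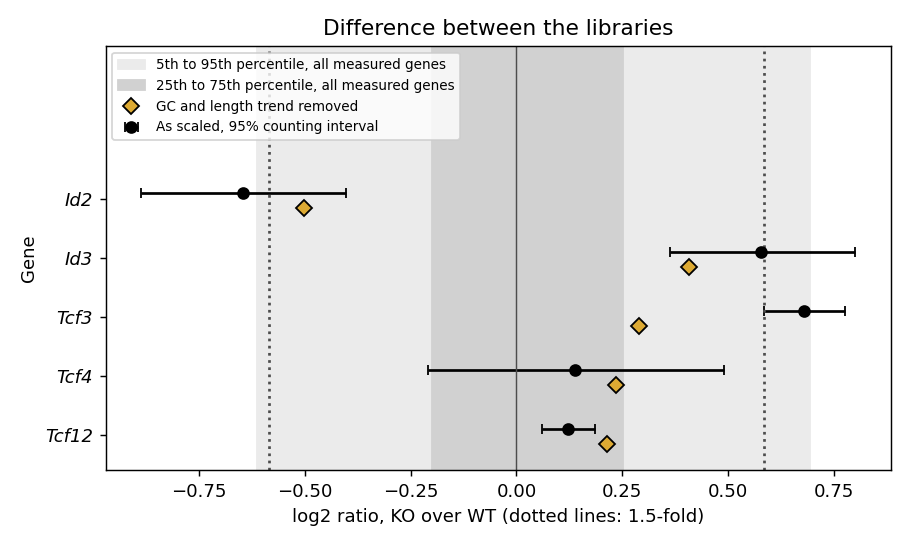
Log2 ratio of KO over WT for the 5 measured genes. Black points with bars are the scaled ratios without a pseudocount and their exact 95% counting intervals, diamonds are trend-removed ratios, the grey bands span all measured genes, and dotted lines mark 1.5-fold. Id2 alone lies below 0, and Tcf3 moves from 0.68 to 0.29 when the trend is removed.

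The composition of each family can be read within a library, which does not depend on how the libraries were scaled. In WT, Id2 gave 52.2% of the reads of the 3 Id genes (Clopper-Pearson 95% interval 47.7 to 56.7) and Id3 gave 47.4% (42.9 to 51.9). In KO, Id2 gave 31.9% (29.0 to 34.9) and Id3 gave 67.7% (64.7 to 70.6). The 2 inhibitors thus had near-equal read numbers in WT, and Id3 had most of the reads in KO. The ratio of Id3 to Id2 reads went from 0.907 in WT to 2.12 in KO, a 2.34-fold difference (exact interval 1.86 to 2.93 for counting error). On the log2 scale this difference was 1.22 as counted and 0.91 with the trend removed.

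The E protein genes differed less in composition. Tcf12 gave 70.0% of their reads in WT (68.6 to 71.4) and 62.0% in KO (61.0 to 62.9), and Tcf3 gave 27.6% (26.2 to 28.9) and 35.9% (34.9 to 36.8). Tcf4 stayed a small fraction, at 2.41% and 2.16%. The ratio of Tcf12 to Tcf3 reads was 2.54 in WT and 1.73 in KO, 1.47-fold lower (1.36 to 1.59). This is a log2 difference of -0.56 as counted, and it was -0.076 with the trend removed. The ratio of Tcf4 to Tcf3 reads likewise differed by -0.54 as counted and by -0.053 with the trend removed.

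**Figure D3:**
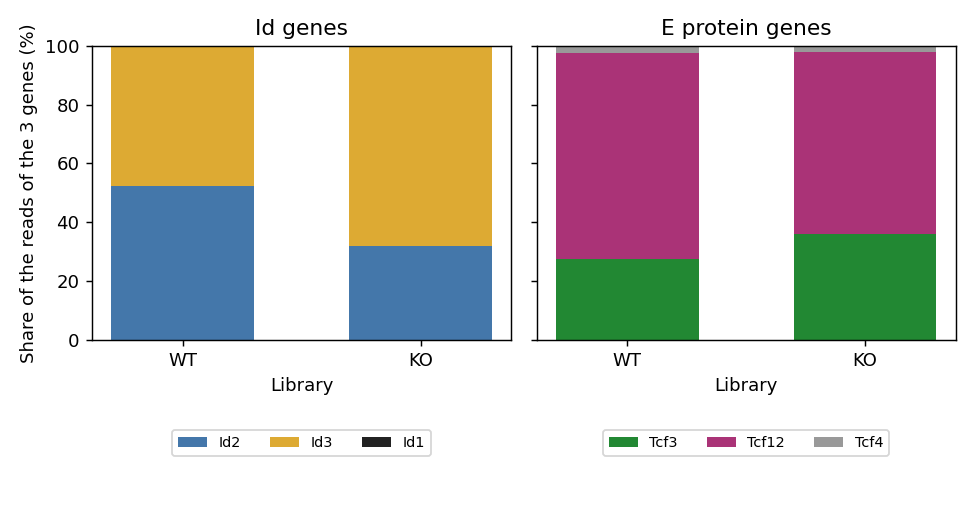
Share of reads within each family in the WT and KO libraries, in percent of the reads of the 3 Id genes (left) and of the 3 E protein genes (right). Id3 makes up 47.4% of Id reads in WT and 67.7% in KO, and Id1 is too low to be seen.

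Inhibitor and E protein genes were then set against each other. The ratio of Id2 to Tcf3 reads was 0.221 in WT and 0.0884 in KO, 2.51-fold lower (2.09 to 3.001), with log2 differences of -1.33 as counted and -0.79 with the trend removed. Against Tcf12, Id2 reads were 1.70-fold lower in KO (1.43 to 2.02), a log2 difference of -0.77, and -0.71 with the trend removed. The ratio of Id3 to Tcf3 differed little, at 0.201 in WT and 0.187 in KO (interval of the KO over WT value 0.791 to 1.10). Id3 reads relative to Tcf12 were 1.37-fold higher in KO (1.17 to 1.61), a log2 difference of 0.46, and 0.19 with the trend removed. Of the 7 pairs compared, those of Id2 with Id3, Tcf3 or Tcf12 kept a log2 difference of more than 0.7 in either processing. These pairs share the same Id2 reads, so they are not independent of each other.

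Levels of different genes can be compared only per length. Per kilobase of the longest transcript, Tcf12 stood at 39.2 RPKM in WT (reads scaled to transcript length and library size) and 42.7 in KO, and Tcf3 at 33.0 and 52.8. Id3 stood at 15.3 and 22.8, Id2 at 10.9 and 6.99, Tcf4 at 0.993 and 1.09, and Id1 at 0.144 and 0.149. The order of the levels was therefore Tcf12, Tcf3, Id3, Id2, Tcf4 and Id1 in WT, and in KO Tcf3 stood above Tcf12. With 1 library per group there is no spread to hold this order against. Which of the last pair is higher depends on the length used, since per kilobase of all annotated exons Tcf3 was the higher in both libraries (24.1 against 15.9 in WT, 38.6 against 17.3 in KO).

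Summed per length, the E protein genes stood at 73.2 in WT and 96.6 in KO and the Id genes at 26.4 and 30.0 RPKM. E protein RNA was 2.78 times Id RNA in WT and 3.22 times in KO. Per kilobase of all annotated exons it was 2.03 times in WT and 2.55 times in KO. In reads, the ratio of Id to E protein genes was 1.18-fold lower in KO (1.05 to 1.32), and no trend-removed value was computed for it. The sums of the Id genes thus differed by 1.14-fold, while Id2 and Id3 within them differed in opposite directions.

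With 2 libraries, the genes most like a member are those with the nearest pair of levels, measured as the distance between log2 scaled counts in WT and KO. Nearest to Id2 were Zfp758, Kdsr and Ppib, within a distance of 0.039. Nearest to Id3 were Nle1, Tfeb and Frat2, within 0.053. Nearest to Tcf3 were Zfp362, Crtc2 and Zbtb7a, and nearest to Tcf12 were Tap2, H2afy and Scaf8.

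Few genes were measured of a list of other helix-loop-helix factors, repressors and the LIM adaptors of such factors. Of 20 partners and repressors, 10 were listed at 0 in both libraries and 5 were measured, of which 1 was at least 1.5-fold higher in KO (7.43% of all measured genes were) and none lower (median log2 ratio 0.39, against 0.01 for all measured genes). The LIM-only adaptor gene Lmo4 had 333 reads in WT and 988 in KO (1.53-fold higher, 1.35 to 1.74). Ldb1, which encodes the LIM-domain binding protein that joins such complexes, had 3731 and 9847 (1.36-fold higher, 1.31 to 1.42). Lmo2 had 40 and 102 reads and Lyl1 32 and 58, and the intervals of both ratios included no difference. Lmo4, Ldb1 and Lmo2 encode adaptors and not helix-loop-helix factors, so the median does not describe helix-loop-helix factors alone.

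Of 10 measured genes for cofactors that E proteins recruit, 3 were at least 1.5-fold higher in KO, none lower and 7 between, with a median log2 ratio of 0.19. Trend-removed, 1 of the 10 was higher. The shares over all measured genes were 7.43% as scaled and 4.94% with the trend removed. The acetyltransferase gene Crebbp had 1751 reads in WT and 6353 in KO (1.88-fold higher, 1.78 to 1.98), and its paralogue Ep300 had 3949 and 11548 (1.51-fold, 1.46 to 1.57). The corepressor gene Ncor1 had a log2 ratio of 0.38. With the trend removed, Crebbp was still at least 1.5-fold higher (0.78), while Ep300 (0.50) was not.

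Genes of the signals that induce Id genes showed little difference as a list. Of 14 measured receptors, Smad and Egr genes, 1 was at least 1.5-fold higher, none was lower and 13 lay between, with a median of -0.11. That is near the 7.43% of all measured genes that were higher. Smad7, the inhibitory Smad induced by TGF-β, had 1063 reads in WT and 3307 in KO (1.61-fold higher, 1.501 to 1.73), and its trend-removed log2 ratio was 0.46. The receptor gene Bmpr2 had 641 and 872 reads (1.42-fold lower, 1.28 to 1.58). Bmpr1a and Acvr1 had log2 ratios of -0.50 and -0.43, resting on 45 and 61 and on 35 and 50 reads. The counting intervals of both ratios included no difference. All 5 genes that control the stability of Id proteins lay within 1.5-fold (median -0.10), with Wdr48 at -0.16, Cops5 at -0.13, Cdc27 at -0.10 and the deubiquitinase gene Usp1 at -0.03. Of all measured genes only 12.9% passed 1.5-fold in either direction, so this count sets nothing apart.

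Genes known as E protein targets in lymphocytes mostly lay within 1.5-fold. Of 16 measured, 2 were at least 1.5-fold higher in KO, 2 lower and 12 between, beside 7.43% higher and 5.51% lower over all measured genes. With 16 genes and 1 library per group, these counts are too small to set the list apart. The median log2 ratio was 0.23 while the mean was -0.05, because of large differences in a few genes. The follicle homing receptor gene Cxcr5 had 818 reads in WT and 489 in KO (3.23-fold lower, 2.89 to 3.63). In the other direction, the cytokine signalling inhibitor gene Socs1 had 187 and 680 reads (1.88-fold higher, 1.60 to 2.22), and the receptor gene Notch3 had 5 and 38 (3.93-fold higher, with a wide interval of 1.54 to 12.8). Notch3 reached the floor only through its KO reads, so its call rests partly on the floor. Cxcr5 and Socs1 kept their calls with the trend removed, and Gfi1 (-0.46 as scaled, -0.68 with the trend removed) then passed 1.5-fold as well.

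The lists of genes commonly found with high Id3 and with high Id2 had medians on opposite sides of 0. Over all measured genes, 7.43% were at least 1.5-fold higher in KO and 5.51% lower, or 4.94% and 5.51% with the trend removed. Of 12 resting T cell genes, 2 were at least 1.5-fold higher in KO, none lower, and 10 had a log2 ratio above 0 (median 0.32). They were led by the quiescence factor Klf2 (0.77) and the repressor Bach2 (0.59), followed by the chromatin organiser Satb1 (0.54), while the receptor gene Slamf6 stood at -0.50. With the trend removed Klf2 (0.35) and Bach2 (0.56) were under 1.5-fold and Satb1 (0.63) was over it. Of 15 effector genes, 10 were at least 1.5-fold lower, 1 was higher (Gata3, log2 ratio 0.67) and 4 lay between, with a median of -1.38. The largest differences were in Cxcr3 (-4.02), Il10 (-3.28, with 41 and 7 reads), Il1rl1 (-2.95) and the granzyme gene Gzmb (-2.49, with 73 and 24 reads). Il10 and Klrg1 (40 and 17 reads) reached the floor only through their WT reads, so their calls rest partly on the floor. Id2, at -0.64, differed less than 9 of the 10 lower effector genes, the exception being Prdm1 at -0.61. Trend-removed, 9 effector genes were lower and Prdm1 was at -0.53. Both lists were put together with earlier results of these libraries known, so their directions are a description and no independent evidence.

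**Figure D4:**
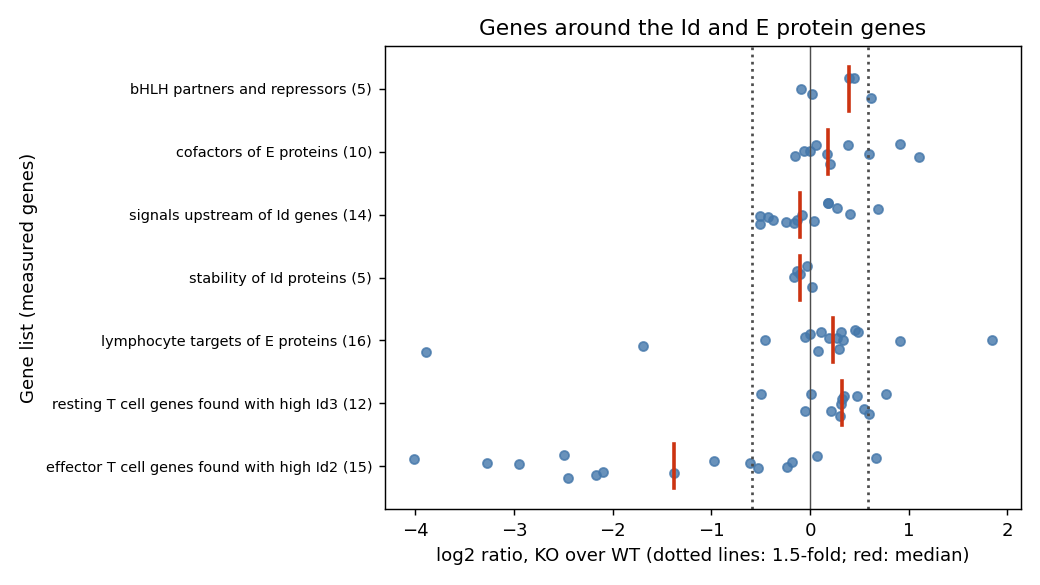
Log2 ratio of KO over WT for each measured gene of the 7 lists, with the number of measured genes in brackets. Each dot is a gene (its height within a row is arbitrary), red bars are list medians and dotted lines mark 1.5-fold. The effector list has a median of -1.38 and the resting list 0.32, and the other medians lie between -0.11 and 0.39.

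In the GENCODE M21 annotation of GRCm38, Id2 spans chr12:25093799-25097140, Id3 chr4:136143497-136145755, Id1 chr2:152736251-152737410, Tcf3 chr10:80409514-80433647 and Tcf12 chr9:71842688-72111871. The position of Tcf4 is not reported here. The exons of the 6 genes overlap no exon of another gene in this annotation. Among the other genes named from the lists, exons of Cxcr5, Notch3, Gfi1, Ldb1, Bach2, Bmpr1a, Lyl1, Ncor1, Cops5, Wdr48 and Id4 overlap a gene on the opposite strand, those of Ep300 a gene on the same strand, and those of Gata3 and Satb1 both. Among the cell markers named, Cd3e, Ikzf2, Ikzf4, Tnfrsf18 and Eomes overlap a gene on the opposite strand, Klrb1c a gene on the same strand, Foxp3 and Ccr9 both, Rag2 a gene on the opposite strand and Pdgfra both. The strand setting of the counting is not known, so these counts are less certain.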

How the data were processed

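The authors deposited 1 table of raw read counts per gene symbol for both libraries. The submitters' processing notes name TopHat2 2.0.3, HTSeq and build mm10. For annotation and strand setting: not given in the sources used here. Of counted reads, 76.6% in WT and 76.6% in KO were assigned to genes. The rest were reads at several places (15.6% and 15.0%), outside exons (6.26% and 6.81%) or shared between genes (1.53% and 1.57%), and stayed out of library sizes. No molecular identifiers are mentioned in the labels, so reads are not independent molecules and intervals cover counting error only.

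Counts were scaled with TMM factors (1.03 for WT, 0.974 for KO; edgeR 4.0.16, R 4.3.3). Log2 ratios use a pseudocount of 1; folds of single genes and their exact conditional binomial 95% intervals use none. Genes whose mean raw count reached 20 were measured, and called at 1.5-fold. No test was possible with 1 library per group, and edgeR and DESeq2 1.42.0 served only for scaling. Ratios of 2 genes within a library have exact conditional intervals. GC content and length came from the longest GENCODE M21 transcript (99.6% of measured genes), and the trend is a cubic fit on both. The interval and the trend fit were tested on simulated data that held counting error and a known trend only. This checks the code and not how well either describes these libraries. Other settings were DESeq2 size factors, total counts, a pseudocount of 5, no floor and a floor of 100, and, chosen after seeing the data, the length of all exons.

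The text names all 6 genes, up to 4 measured genes of each of 7 lists with the largest absolute log2 ratio, and the 3 nearest genes of 4 members. Gata3, Prdm1, Klrg1 and Gfi1 were named after their values were seen, as were the marker genes given with values. The members and lists were chosen with earlier results of these data known. The targeted gene and some genes that this rule takes are not reported here. Computed with Python 3.11.15, pandas 2.3.3, numpy 2.4.6, scipy 1.17.1 and matplotlib 3.10.9.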

Additional observations from a re-analysis of the deposited data

How the results depend on the processing

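The 5 measured genes kept their direction under the 6 alternatives, with log2 ratios from -0.72 to -0.50 for Id2, 0.41 to 0.58 for Id3, 0.29 to 0.68 for Tcf3, 0.060 to 0.24 for Tcf4 and 0.046 to 0.21 for Tcf12. The floor settings leave these ratios as they were and a pseudocount cannot change their sign, so only the scalings and the trend could do so. The counting interval of Tcf4 included no difference. Removing the trend on GC content and length took Tcf3 to 0.29 and Tcf12 to 0.21, and total-count scaling took Tcf12 to 0.046. With the trend removed, the log2 differences in read ratio were -0.076 for Tcf12 to Tcf3, -0.053 for Tcf4 to Tcf3, -0.79 for Id2 to Tcf3 and 0.19 for Id3 to Tcf12. The sign of the Id3 to Tcf3 difference, -0.10 as counted with an interval that included 0, was positive with the trend removed (0.12).

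Without the floor, 2617 genes passed 1.5-fold upwards and 1867 downwards, against 810 and 600. With a floor of 100 these were 509 and 309, and with the trend removed 536 were higher. List counts changed as follows. Among partners, total-count scaling left 0 higher and no floor gave 4 lower. With the trend removed 1 cofactor, 0 upstream signal genes and 1 resting gene were higher (Satb1, in place of Klf2 and Bach2), 9 effector genes were lower against 10, and 3 targets against 2. No floor gave 1 upstream signal gene lower. With total-count scaling 2 cofactors and 1 resting gene were higher and 11 effector genes lower. Smaller changes of list counts were in the targets without the floor, 3 higher and 3 lower. The floor of 100 left 1 higher and 1 lower target and 6 lower effector genes, since fewer genes were measured. Not divided by length, E protein reads were 8.56 times Id reads in WT and 10.1 times in KO. Of 137 alternative values, 113 stayed within their counting interval or within 1.5 times the count. Among the 113 are ratios of single genes under the floor settings, which could not change. The cause of the other changes was not tested. No paired analysis was possible because each group has 1 library. Id1 has too few reads for any setting to be informative.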
